A study of Homo sapiens with 10 samples.

Results

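Mitochondrial ribosomal proteins are the protein subunits of the ribosome that works inside mitochondria. They were taken here as all protein-coding genes of the deposited table whose symbol begins with MRPS, for the small subunit, or MRPL, for the large subunit, followed by a number and at most a letter from A to D. The rule found 78 genes among 58229 in the table, 29 of the small and 49 of the large subunit. All 78 passed the filter of a mean of at least 1 FPKM (fragments scaled by transcript length and library total), which 12872 genes passed, and none was listed at 0 in any library.

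The series sequenced RNA described as polyadenylated, in 10 libraries from H929 and from a line labelled only OCI. Both are multiple myeloma lines and so cancers of plasma cell origin. Each line gave 1 wild-type library, 2 libraries labelled as AIMP1 knockdown (knockdown 1 and knockdown 2), 1 of AIMP1 overexpression and 1 of cells labelled wild type and treated with AIMP1 protein. AIMP1 encodes a scaffold protein of the complex that holds several aminoacyl-tRNA synthetases of the cytosol, and it also acts outside the cell. The labels give no dose or time, no knockdown reagent and no vector.

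Mitochondria keep a small genome that encodes core subunits of the respiratory chain and of ATP synthase, together with the RNAs of their own ribosome. The proteins of that ribosome are all encoded in the nucleus, made in the cytosol and imported. The mitochondrial ribosome translates only the mitochondrially encoded mRNAs, so its subunits, assembly factors and translation factors serve the supply of oxidative phosphorylation. The small subunit reads the mRNA and the large subunit joins the amino acids and holds the exit tunnel.

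At their transcription starts some of these genes share a feature that the rule did not use. RefSeq start windows (GRCh38.p14), reaching from before the annotated start into the first transcribed bases, matched 69 of the 78 genes and 15843 protein-coding genes in all. The core of the YY1 motif, AAGATGGC on either strand, was found in 20 of 69 windows (29%) and in 3.91% of all windows. The ETS motif bound by GABPA, CCGGAAGT, was found in 11 windows (15.9%) and in 6.19% of all. Windows of cytosolic ribosomal protein genes held the YY1 core in 10.1% and the ETS motif in 15.9%. For nuclear-encoded oxidative phosphorylation genes these shares were 17.2% and 15.6%, so the ETS share was not particular to the mitochondrial ribosome. The stretches below run from 60 bases before the start to 30 bases from the start on. They show 6 genes with the YY1 core just after the start, MRPL27 with a repeated ETS motif, and MRPS21, which has no motif of the list and is among the genes least like the others in expression. Capitals mark the YY1 core and the ETS motif, and each stretch is written 5′ to 3′ on the gene's strand.
MRPL20: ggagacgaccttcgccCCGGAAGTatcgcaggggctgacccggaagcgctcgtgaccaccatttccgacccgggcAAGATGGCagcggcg
MRPL51: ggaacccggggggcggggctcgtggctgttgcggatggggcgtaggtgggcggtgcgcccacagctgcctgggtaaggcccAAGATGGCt
MRPL38: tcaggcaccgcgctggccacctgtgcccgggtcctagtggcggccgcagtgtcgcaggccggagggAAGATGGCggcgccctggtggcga
MRPS7: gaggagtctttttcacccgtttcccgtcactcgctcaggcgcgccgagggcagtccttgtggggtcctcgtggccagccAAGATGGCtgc
MRPS18A: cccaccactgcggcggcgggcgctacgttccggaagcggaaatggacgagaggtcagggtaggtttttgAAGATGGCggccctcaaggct
MRPL45: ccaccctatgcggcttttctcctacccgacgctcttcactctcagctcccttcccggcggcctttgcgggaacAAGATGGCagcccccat
MRPL27: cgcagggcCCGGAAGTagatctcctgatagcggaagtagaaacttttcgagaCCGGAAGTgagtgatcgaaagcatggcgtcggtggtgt
MRPS21: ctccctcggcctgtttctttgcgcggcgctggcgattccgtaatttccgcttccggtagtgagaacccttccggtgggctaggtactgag

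These stretches lie at chr1:1407264-1407353 (minus strand) for MRPL20, chr12:6493233-6493322 (minus) for MRPL51, chr17:75904855-75904944 (minus) for MRPL38 and chr17:75261819-75261908 (plus) for MRPS7. Those of MRPS18A and MRPL45 lie at chr6:43687762-43687851 (minus) and chr17:38297108-38297197 (plus), and those of MRPL27 and MRPS21 at chr17:50373155-50373244 (minus) and chr1:150293801-150293890 (plus). The YY1 core stood at or after the start in 15 of the 69 windows (21.7%), each time on the gene's own strand, against 2.48% of all windows. Its letters contain an ATG, so a match there can also be part of a coding start, and this was not examined. Of the small subunit 8 of 27 windows held the YY1 core, and of the large subunit 12 of 42. The NRF1 core GCATGCGC was found in 6 windows (8.70%, against 4.26% of all) and the E-box CACGTG in 6 (8.70%, against 8.88%). Windows of nuclear-encoded oxidative phosphorylation genes held the NRF1 core in 20.3%, and those of cytosolic ribosomal protein genes in 4.35%. The cyclic AMP response element TGACGTCA was found in none of the 69 and in 2.59% of all, and the ATF4-CHOP element TGATGNAA in 1 (1.45%, against 2.53%). None of these motifs contains another, and a match is a run of letters, not a shown binding site. The windows of the 69 genes had a median GC content of 60.3%, those of all genes 62.7%.

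Some facts of the series bear on all values below. AIMP1 stood at 24.5% of its wild-type level in H929 knockdown 2, at 35.1% and 16.4% in OCI knockdown 1 and 2, and at 431% and 417% in H929 and OCI overexpression. It stood at 98.2% in the library labelled H929 knockdown 1, which therefore goes against its label. Absolute depth is unknown. Relative depth was taken as the most frequent ratio of OCI wild-type FPKM to library FPKM, over genes with a mean under 0.1 FPKM. Genes at 0 in either library were left out. In each library 53 to 163 of 687 to 1491 such genes had that ratio. So judged, H929 libraries reached 27.5% to 41.8% of the depth of OCI wild type, and the other OCI libraries 27.7% to 73.2%. The 8 plasma cell markers summed to 2899 to 4277 FPKM, whereas the 8 markers of T and NK cells summed to 0.113 to 19.3, the 8 myeloid markers to 1.998 to 17.9 and the 9 stromal and endothelial markers to 0.491 to 8.82. The 6 adipose markers summed to at most 0.474 FPKM and the 5 erythroid markers to at most 2.23. Abundant short RNAs (RMRP, RPPH1, RN7SK, RN7SL1 and RN7SL2) held 49.6% to 80.7% of the FPKM sum. How far the libraries held polyadenylated RNA alone was not tested.

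The mitochondrial ribosome was expressed well above the typical gene in both lines. Mean levels over the 10 libraries ran from 4.44 to 276 FPKM, with a median of 61.5 FPKM, compared with 11.2 for all tested genes and 13.7 for tested protein-coding genes. The median was 50.3 FPKM for the small and 67.3 for the large subunit, although most of these proteins are present once per ribosome. The genes therefore differed among themselves by far more than any of them differed between libraries. Across the 10 libraries the highest value of a gene was 1.39 times (MRPL34) to 4.58 times (MRPL54) its lowest. In the small subunit MRPS24 (276 FPKM), MRPS34 (225) and MRPS27 (216) had the highest mean levels. MRPS27 is a pentatricopeptide repeat protein, a class that binds RNA, and MRPS34 has no bacterial counterpart. The lowest were MRPS17 (11.5), MRPS31 (12.3) and MRPS36 (17.0). MRPS36 has since been assigned to the oxoglutarate dehydrogenase complex, and its level was among the 3 lowest of its list. In the large subunit MRPL51 (238 FPKM), MRPL23 (174) and MRPL37 (168) led, and MRPL50 (4.44), MRPL1 (10.2) and MRPL19 (14.1) were lowest. MRPL23 lines the exit of the peptide tunnel, and MRPL1 forms a mobile stalk beside the site where used tRNAs leave.

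MRPL12, which sits in several copies on the stalk that recruits translation factors, had a mean level of 161 FPKM, and MRPL10, which anchors it, 79.9 FPKM. MRPL58, also known as ICT1, is a peptidyl-tRNA hydrolase that became part of the large subunit, and had 62.1 FPKM. The symbols do not always give the place of the protein. MRPS18A and MRPS30 are known to sit in the large subunit, and had 67.2 and 38.8 FPKM. MRPS18A is a paralogue of MRPS18B (121 FPKM) and MRPS18C (22.0 FPKM), which belong to the small subunit. Mitochondrial ribosomal proteins also leave many pseudogenes. The table held 79 genes named as pseudogenes of members, of which 2, MRPS31P4 and MRPS31P5, had a mean of at least 1 FPKM. How reads shared with such copies were assigned is not stated in the labels, so the levels of MRPS31 in particular are uncertain.

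Relative to the wild type of the same line, the 78 genes as a group stood lowest in OCI knockdown 2 and in H929 overexpression. In OCI knockdown 2 the median difference was -0.47 on the log2(FPKM + 1) scale, 72.2% of wild type, and 62 of 78 genes were below wild type. In H929 overexpression the median was -0.33, 79.3% of wild type, with 67 of 78 genes below, and in OCI overexpression it was -0.18, 88.5%, with 53 below. The medians in H929 knockdown 1, H929 knockdown 2 and OCI knockdown 1 lay at -0.014, -0.030 and 0.00020, close to wild type. In the protein libraries the medians were -0.10 in H929 and -0.099 in OCI, with 46 and 43 genes below wild type. The medians of all tested genes were 0.17 in H929 protein, 0.062 in OCI protein and between -0.015 and 0.035 in the other 6 libraries. In bulk RNA such differences cannot tell less RNA per cell from fewer cells of a kind. All these differences within a line share its wild-type library.

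**Figure D1:**
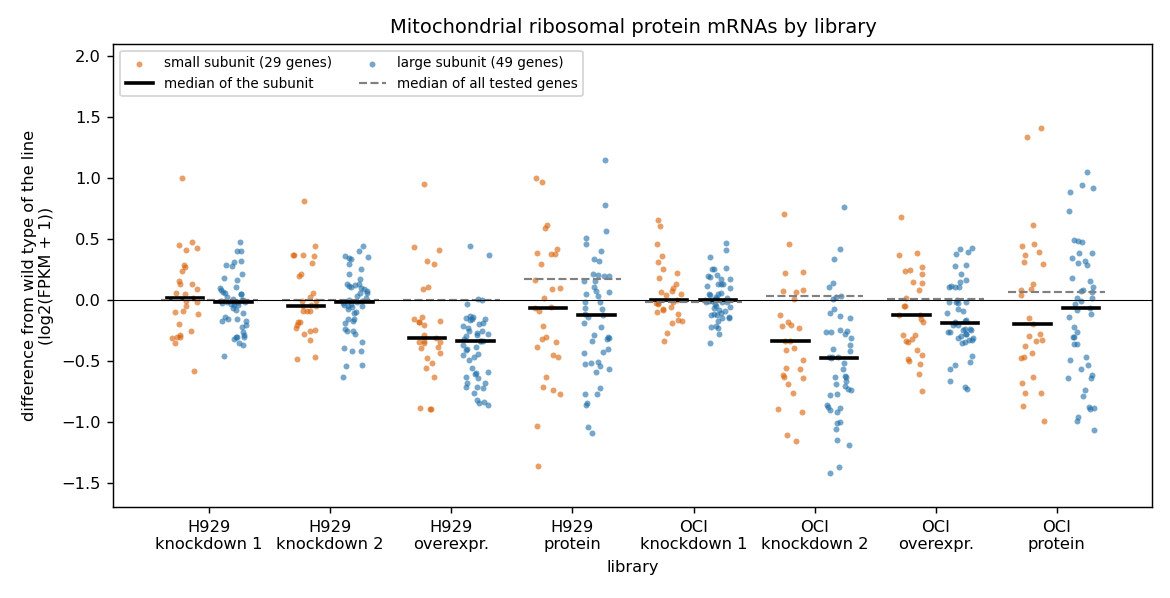
Difference of each mitochondrial ribosomal protein mRNA from the wild type of its line, in log2(FPKM + 1), in the 8 manipulated libraries. Points are genes of the small (29, orange) and large (49, blue) subunit, black bars are the medians of a subunit and dashed lines the median of all 12872 tested genes. In H929 overexpression and OCI knockdown 2 most points lie below 0, while in H929 knockdown 1, H929 knockdown 2 and OCI knockdown 1 they scatter around 0.

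Both subunits shared this pattern. In OCI knockdown 2 the small subunit had a median of -0.33 (21 of 29 genes below wild type) and the large subunit -0.47 (41 of 49). In H929 overexpression they had -0.32 (22 of 29) and -0.34 (45 of 49), and in OCI overexpression -0.12 (18 of 29) and -0.18 (35 of 49). In H929 protein the small subunit stood at -0.064 and the large at -0.12, while in OCI protein the order was turned, with -0.19 and -0.070. The difference between the medians of the subunits lay between -0.12 and 0.14 in the 8 libraries.

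The libraries in which the group was low also differed in depth and make-up. Relative depth was 33.9% and 27.7% of OCI wild type in H929 and OCI overexpression, lower than in wild type of either line (41.8% and 100%), and 58.6% in OCI knockdown 2. The short RNAs named above held 80.7% of the FPKM sum in OCI knockdown 2 and 80.4% in OCI overexpression, against 75.6% in OCI wild type. In H929 overexpression they held 76.2%, against 72.2% in wild type. H929 protein had the lowest depth of all, 27.5%, and a short-RNA share of 78.1%, with a median of the 78 genes of only -0.10. The part of depth or make-up in the differences was not tested.

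With AIMP1 overexpression, mitochondrial ribosomal protein mRNAs leaned to lower levels in both lines, but no gene passed the test. Of the 78 genes 48 (61.5%) were below wild type in both lines, 14 of the small and 34 of the large subunit, whereas 30.6% of all tested genes were lower in both. Only 6 were above wild type in both lines (30.9% of all tested genes). The fitted median was -0.20 for the small and -0.32 for the large subunit, against 0.0051 for all tested genes. limma called 0 of the 78 at an adjusted p under 0.05 (0% of all tested genes, or 0 of 12872). At an unadjusted p under 0.05 it found 0 higher (3.93% of all) and 1 lower, MRPL15 (2.42% of all). Without H929 overexpression the medians were -0.064 for the small and -0.094 for the large subunit, so most of their size rested on that library.

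MRPL15, a large-subunit counterpart of the bacterial protein of the same number, went from 79.1 FPKM in H929 wild type to 43.7 in overexpression, and from 85.1 to 50.9 in OCI (log2 difference -0.79 ± 0.35 SE, limma adjusted p = 0.742). MRPL27, which reaches toward the peptidyl transferase centre and whose start stretch with the repeated ETS motif is printed above, went from 82.7 to 49.7 FPKM and from 97.4 to 59.0 (-0.72 ± 0.32). MRPL46 stood at 43.5 and 23.5 FPKM in H929 cells and at 41.9 and 34.8 in OCI (-0.56 ± 0.35). In all 3 genes both overexpression values lay below both wild-type values. In the small subunit MRPS12, which lies at the decoding site, went from 136 to 73.3 FPKM in H929 cells and from 179 to 124 in OCI (-0.70 ± 0.35). MRPS35 had -0.57 ± 0.31 and MRPS34 -0.46 ± 0.28.

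The 6 genes above wild type in both overexpression libraries were MRPS27, MRPS21, MRPS18B, MRPL33, MRPL10 and MRPL32. MRPL33 went from 114 to 155 FPKM in H929 cells and from 114 to 153 in OCI (0.43 ± 0.23), and MRPL10 from 57.9 to 75.0 and from 62.2 to 82.0 (0.38 ± 0.32). MRPS27 went from 120 to 233 FPKM in H929 but only from 219 to 232 in OCI (0.52 ± 0.40). MRPS21 had 0.33 ± 0.26. MRPS18B (0.12 ± 0.28) and MRPL32 (0.0070 ± 0.28), whose protein is matured by the m-AAA protease, changed sign in some settings, MRPL32 with median centring and with rescaling over protein-coding genes.

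With AIMP1 knockdown, the fitted medians were -0.073 for the small and -0.13 for the large subunit, against 0.0079 for all tested genes, and they rested on OCI knockdown 2. Without that library they were -0.0078 and 0.0094. Of the 78 genes 16 were below wild type in all 4 knockdown libraries (14.3% of all tested genes) and 7 above in all 4 (13.6% of all). Without the library labelled H929 knockdown 1 these counts were 23 (20.3% of all) and 9 (20.3%). With quantile normalization 10 genes were below (15.6% of all) and 8 above in all 4 (11.4% of all), near the share of all genes. With rescaling over protein-coding genes 26 were below (21.6% of all) and 4 above (9.59% of all). limma called 0 of 78 genes (0% of all), and at an unadjusted p under 0.05 it found 0 higher (2.1% of all) and 0 lower (0.66% of all).

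Among the genes below wild type in all 4 knockdown libraries, MRPL15 had 64.1 and 59.1 FPKM in H929 knockdown 1 and 2 and 69.8 and 32.3 in OCI knockdown 1 and 2 (-0.59 ± 0.30, limma adjusted p = 0.980). Its OCI knockdown 2 value was the lowest of its 10 libraries. MRPL19 had 16.9, 14.1, 16.0 and 6.04 FPKM in the same order, with 19.2 and 17.8 in wild type (-0.54 ± 0.36), and MRPL27 66.0, 69.2, 86.4 and 42.1 (-0.48 ± 0.28). In the small subunit MRPS12 (-0.39 ± 0.31), MRPS35 (-0.35 ± 0.26) and MRPS28 (-0.32 ± 0.26) had the largest such differences. Above wild type in all 4 were MRPS18B, at 106, 108, 123 and 158 FPKM against 79.7 and 96.1 in wild type (0.48 ± 0.25), and its paralogue MRPS18A, at 57.8, 63.4, 75.9 and 76.0 against 48.9 and 55.0 (0.38 ± 0.29). MRPL10 (0.37 ± 0.28), MRPL33 (0.34 ± 0.20), MRPL45 (0.22 ± 0.19) and MRPS14 (0.11 ± 0.19) followed. None of these differences passed the threshold.

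The knockdown and overexpression libraries were also compared directly. Compared with overexpression, knockdown had a median of 0.14 in each subunit, against 0.0025 for all tested genes. limma called 0 of 78 (0% of all), with 0 higher (1.3% of all) and 0 lower (1.62% of all) at an unadjusted p under 0.05. Without H929 overexpression the median was 0.042 in the small and -0.059 in the large subunit. MRPS18A (0.53 ± 0.29), MRPS18B (0.35 ± 0.25) and MRPS14 (0.29 ± 0.19) were higher in all knockdown libraries than in overexpression of the same line, as were MRPL49 (0.44 ± 0.27), MRPL45 (0.30 ± 0.19) and MRPL35 (0.22 ± 0.26). MRPS18C (-0.26 ± 0.34), MRPS21 (-0.24 ± 0.22) and MRPL33 (-0.099 ± 0.20) were lower in all of them. Among the genes named for these manipulations, MRPL15, MRPL19, MRPL27, MRPS12 and MRPS35 were below wild type in every library of both. MRPS18B, MRPL33 and MRPL10 were above it in every library of both. Members not named there, such as MRPL12 and MRPL38, were also below under both. The comparisons of each manipulation with wild type share the wild-type libraries, so this is not independent evidence for either.

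With AIMP1 protein, the genes stood on both sides of wild type. Of the 78 genes 21 were above wild type in both lines, 10 small and 11 large (36.7% of all tested genes), and 32 below in both, 13 small and 19 large (23.7% of all). The fitted medians were 0.018 for the small and -0.13 for the large subunit, against 0.14 for all tested genes. Relative to all tested genes the median of the 78 was -0.24, and -0.23 with quantile normalization, which took the median of all genes to -0.016. limma called 0 of 78 (0.0155% of all, 2 genes). At an unadjusted p under 0.05 it found 5 genes higher (13.2% of all) and 6 lower (5.79% of all). This division depends on the scale. With each library centred on its median 10 genes were above (28.7% of all) and 38 below wild type in both lines (31.9% of all). With quantile normalization 11 were above (29.2% of all) and 41 below (32.1% of all), and with rescaling over protein-coding genes 2 (19.6% of all) and 58 (43.8% of all), so all genes moved with the scale as well.

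The lower genes included members of both subunits. MRPL15 went from 79.1 to 36.7 FPKM in H929 cells and from 85.1 to 42.4 in OCI (-1.04 ± 0.35, limma adjusted p = 0.181). MRPL12 went from 164 to 89.7 FPKM and from 253 to 137 (-0.87 ± 0.37), and MRPL3, which lies close to the peptidyl transferase centre, from 26.0 to 15.4 and from 45.2 to 23.9 (-0.81 ± 0.30). MRPL15 passed the threshold only without OCI knockdown 2 (adjusted p = 0.0321). In the small subunit MRPS35 went from 35.3 to 16.7 FPKM and from 46.9 to 27.2 (-0.90 ± 0.31), MRPS9 from 22.8 to 13.5 and from 17.5 to 8.28 (-0.85 ± 0.28), and MRPS30, a large-subunit protein despite its symbol, from 53.1 to 38.5 and from 41.3 to 22.1 (-0.66 ± 0.25). The protein values of MRPS9 were the lowest of each line.

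The higher genes had differences of similar size. MRPS18B went from 79.7 to 105 FPKM in H929 cells and from 96.1 to 244 in OCI (0.86 ± 0.28, limma adjusted p = 0.177), and MRPS18A from 48.9 to 49.4 and from 55.0 to 148 (0.71 ± 0.33). For both paralogues the difference was larger in OCI. MRPS21 went from 23.2 to 46.2 FPKM in H929 cells and from 54.9 to 71.2 in OCI (0.67 ± 0.26). MRPL10 went from 57.9 to 129 FPKM and from 62.2 to 76.2 (0.72 ± 0.32), MRPL33 from 114 to 195 and from 114 to 161 (0.63 ± 0.23), and MRPL2, at the core of the large subunit, from 134 to 170 and from 132 to 275 (0.70 ± 0.31). These 6 genes were named for having the largest differences of their subunit among genes above wild type in both lines.

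The test of unequal effects in the 2 lines was made on the difference itself, with a spread taken from the knockdown libraries alone (2 residual degrees of freedom). The knockdown libraries of a line were unlike each other. AIMP1 stood at 98.2% and 24.5% of wild type in H929 knockdown 1 and 2. In OCI knockdown 1 and 2 the median of the 78 genes was 0.00020 and -0.47. Such differences enter the spread, so a lack of calls here says little. limma called 0 of the 78 genes for protein (0.101% of all), 0 for overexpression (0.00777% of all) and 0 for knockdown (0% of all). At an unadjusted p under 0.05 there were 3 for protein (6.98% of all), 0 for overexpression (2.32% of all) and 0 for knockdown (1.26% of all). The 3 were MRPS18A (OCI minus H929 1.40 ± 0.45), MRPS17 (1.67 ± 0.61) and MRPL23 (-1.39 ± 0.54), with limma adjusted p from 0.6998 to 0.709. MRPS17 went from 13.6 to 4.68 FPKM in H929 cells and from 12.8 to 16.1 in OCI, and MRPL23 from 130 to 185 in H929 and from 243 to 131 in OCI.

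The genes varied together. Each gene's log2 values were centred within its line and set against the mean of the other 77 over the 10 libraries. The Pearson correlation had a median of 0.573 over the 78 genes, 0.451 in the small and 0.658 in the large subunit, and -0.048 over the 12794 other tested genes. It was over 0.7 for 26 of 78 genes (33.3%) and for 7.25% of the others. These are descriptions over libraries that share depth and make-up, so they say nothing of shared control. The 3 genes most like the others were MRPL4 (0.937), MRPL11 (0.926), which forms the base of the factor-binding stalk, and MRPS12 (0.923). Correlation did not follow transcript length (Pearson r = -0.064 over 78 genes).

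MRPL4 stood at 153, 142, 157, 101 and 142 FPKM in H929 wild type, knockdown 1, knockdown 2, overexpression and protein, and at 175, 171, 105, 165 and 142 in the same order in OCI. MRPL11 stood at 73.0, 76.5, 70.7, 51.6 and 69.6 FPKM in H929 cells and at 124, 113, 61.2, 110 and 123 in OCI. Both genes had their lowest H929 value in overexpression and their lowest OCI value in knockdown 2, like the group as a whole.

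The 3 genes least like the others were MRPL10 (-0.609), MRPS21 (-0.454) and MRPL33 (-0.403). MRPL10 stood at 57.9, 71.9, 74.0, 75.0 and 129 FPKM in H929 wild type, knockdown 1, knockdown 2, overexpression and protein, and at 62.2, 64.0, 106, 82.0 and 76.2 in OCI. MRPL33 stood at 114, 151, 123, 155 and 195 FPKM in H929 cells and at 114, 152, 152, 153 and 161 in OCI. Wild type was the lowest library of its line for both genes in both lines. MRPL10 and MRPL11 both belong to the stalk base, and in OCI knockdown 2 MRPL10 had its highest and MRPL11 its lowest OCI value. MRPS18B (-0.186), MRPL30 (-0.168), MRPS18C (-0.100) and MRPL45 (-0.048) were the only other members with a negative value. The 20 genes with the YY1 core anywhere in their start window had a median correlation of 0.637, and the 11 with the ETS motif 0.796. The 38 genes with no motif of the list had 0.586, so motif groups overlapped widely.

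**Figure D2:**
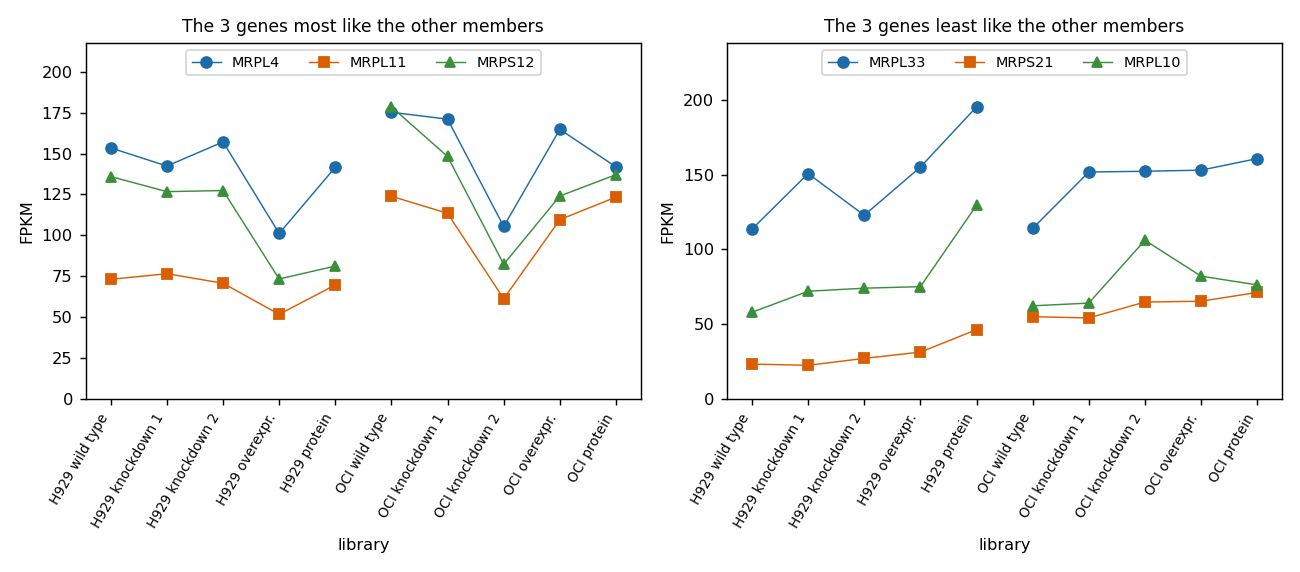
FPKM in the 10 libraries of the 3 mitochondrial ribosomal protein genes most like the mean of the others (left) and of the 3 least like it (right); lines join the libraries of a cell line for reading only. On the left, H929 overexpression and OCI knockdown 2 are the low libraries of their line, as for MRPL4 at 101 and 105 FPKM. On the right, wild type is low in each line for MRPL10 and MRPL33.

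The genes around the mitochondrial ribosome were followed in lists of their own. Of 24 tested assembly and ribosomal RNA modification factors 15 were below wild type in both overexpression libraries (30.6% of all tested genes) and 4 above (30.9% of all), with medians of -0.26 in overexpression, -0.15 in knockdown and -0.17 in protein. Their correlation with the mean of the 78 genes had a median of 0.366. The rRNA methyltransferase TFB1M and the endoribonuclease YBEY went the other way. TFB1M went from 5.94 to 13.5 FPKM in H929 overexpression and from 4.30 to 8.84 in OCI (0.98 ± 0.37), and YBEY from 14.2 to 20.5 and from 10.64 to 27.4 (0.90 ± 0.38). The 18 translation factors had medians of -0.30 in protein, -0.16 in overexpression and -0.17 in knockdown. Among them TSFM, an elongation factor, went from 65.7 to 33.0 FPKM in H929 protein and from 52.2 to 33.7 in OCI (-0.79 ± 0.32). None of these genes passed the threshold in a comparison of manipulations.

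The 13 genes of mitochondrial transcription and its nuclear regulators had medians of -0.37 in overexpression, -0.19 in knockdown and -0.21 in protein, with 0 called in each. In each of these comparisons 5 of the 13 fitted differences were above 0. In both overexpression libraries 7 were below wild type (30.6% of all tested genes) and 1 above (30.9% of all). In all 4 knockdown libraries 6 were below (14.3% of all) and 3 above (13.6% of all). The genes named next are lower ones. TFAM, which packages mitochondrial DNA and activates its transcription, was below wild type in all 8 libraries. It stood at 26.8, 24.1, 12.9, 14.2 and 16.3 FPKM in H929 wild type, knockdown 1, knockdown 2, overexpression and protein, and at 35.6, 28.3, 11.5, 15.2 and 14.9 in OCI. The coactivator PPRC1 went from 35.9 to 14.8 FPKM in H929 overexpression and from 39.1 to 24.9 in OCI (-0.93 ± 0.47), and PPARGC1B from 7.64 to 3.85 and from 8.27 to 4.96 (-0.74 ± 0.32). YY1 itself had 33.9 FPKM in H929 and 21.1 in OCI overexpression, against 39.8 and 41.9 in wild type. Of 11 mitochondrial proteases and chaperones, 7 were below wild type in both overexpression libraries (30.6% of all tested genes) and 0 above (30.9% of all), among them AFG3L2, a subunit of the m-AAA protease, at 25.2 and 27.9 FPKM against 44.5 and 33.1. The 5 mitochondrial ribosomal proteins with other symbols, such as DAP3, PTCD3 and AURKAIP1, had medians of -0.16 in overexpression and -0.17 in knockdown.

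The mRNAs that this ribosome translates stood in contrast. The 13 mitochondrially encoded mRNAs had medians of 0.91 in protein, 2.002 in overexpression and 1.07 in knockdown, and 12 of 13 were above wild type in both overexpression libraries (30.9% of all tested genes) and in all 4 knockdown libraries (13.6% of all). None passed the threshold. MT-ND5, a complex I subunit, stood at 271, 536, 573, 1026 and 541 FPKM in H929 wild type, knockdown 1, knockdown 2, overexpression and protein, and at 139, 386, 404, 847 and 287 in OCI. The overexpression value was the highest of each line (2.25 ± 0.25, limma adjusted p = 0.0610). The 2 mitochondrial ribosomal RNAs, MT-RNR1 and MT-RNR2, were listed at 0 or under 4 FPKM in all libraries. Why they were so low was not tested, and no value for the RNA of this ribosome can be given. Nuclear-encoded subunits of oxidative phosphorylation had medians of 0.38, 0.041 and 0.092 over 79 genes in protein, overexpression and knockdown.

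Cytosolic ribosomal proteins also differed from their mitochondrial counterparts. The 82 tested genes had medians of 0.74 in protein, 0.32 in overexpression and 0.28 in knockdown, and their correlation with the mean of the 78 mitochondrial genes had a median of -0.448. In OCI knockdown 2 the cytosolic genes stood at a median of 0.74 above wild type while the mitochondrial ones stood at -0.47. RPS27, a cytosolic small-subunit protein, went from 2089 FPKM in OCI wild type to 5485 in knockdown 2. None of the 82 passed the threshold in a comparison with wild type. Between the lines 3 were called higher in OCI (7.6% of all) and 2 lower (5.28% of all), and 1 was called lower for the protein effect in OCI minus H929 (0.101% of all in either direction). The part of library make-up in this contrast was not tested.

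**Figure D3:**
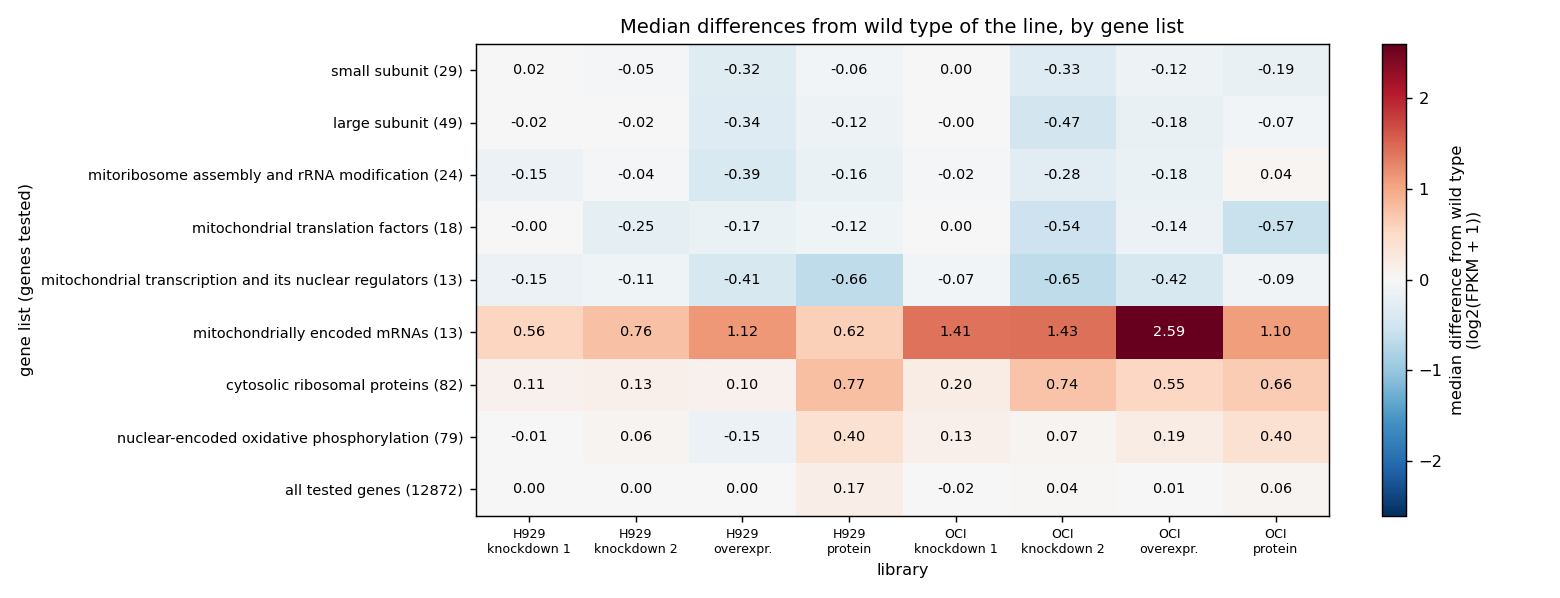
Median difference from the wild type of the line, in log2(FPKM + 1), for each gene list (rows, with the number of tested genes) in the 8 manipulated libraries (columns); red is above and blue below wild type. In OCI knockdown 2 the subunits of the mitochondrial ribosome have -0.33 and -0.47 and the cytosolic ribosomal proteins 0.74. The median of the mitochondrially encoded mRNAs is above wild type in all 8 libraries.

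Members passed the test in the comparison between the lines. Over all manipulations 59 of the 78 fitted differences were above 0, that is higher in OCI, with a median of 0.19 for the small and 0.21 for the large subunit, against -0.0020 for all tested genes. With quantile normalization these medians were 0.084 and 0.14, against -0.043, and with rescaling over protein-coding genes 0.051 and 0.073, against -0.13. limma called 10 of 78 higher in OCI (7.6% of all tested genes) and 1 lower (5.28% of all). Pairing libraries by label, 20 were higher in OCI in each of the 5 pairs (14.3% of all) and 7 lower (13.8% of all). In 8 genes the 5 OCI libraries lay above all 5 H929 libraries (6.22% of all tested genes), and in 2 below (5.75% of all). Depth differs between the lines, being 27.5% to 41.8% of OCI wild type in H929 and over 58% in 4 of 5 OCI libraries, and its part was not tested. The group median followed the lines except under knockdown 2, where OCI stood at -0.13 relative to H929. In wild type, knockdown 1, overexpression and protein it stood at 0.22, 0.31, 0.45 and 0.34.

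MRPL45, which lies at the tunnel exit and ties the ribosome to the inner membrane, had the largest difference. It stood at 18.1, 21.1, 19.8, 16.2 and 17.8 FPKM in H929 wild type, knockdown 1, knockdown 2, overexpression and protein, and at 41.8, 47.9, 53.1, 41.4 and 44.4 in OCI. The groups did not overlap (1.25 ± 0.14, limma adjusted p = 6.1e-04, higher in 5 of 5 pairs). MRPS21 stood at 23.2, 22.4, 27.0, 31.2 and 46.2 FPKM in H929 cells and at 54.9, 54.1, 64.7, 65.3 and 71.2 in OCI, again without overlap (1.07 ± 0.16, adjusted p = 0.0029 by limma). These 2 were called in all alternatives tried.

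MRPL13 ran from 17.4 to 28.7 FPKM in H929 cells and from 32.6 to 51.5 in OCI (0.93 ± 0.20), and MRPS28 from 28.7 to 44.9 and from 45.8 to 96.2 (0.90 ± 0.19). Both are encoded on chromosome 8 and neither overlapped between lines. MRPL54 ran from 75.5 to 128 FPKM in H929 cells and from 145 to 346 in OCI (0.75 ± 0.18), and MRPL9 from 39.4 to 57.6 and from 60.3 to 102 (0.72 ± 0.18), also without overlap. MRPL15, the third member on chromosome 8, ran from 36.7 to 79.1 FPKM in H929 cells and from 32.3 to 85.1 in OCI, so its ranges overlapped. The other called genes were MRPS2 (0.87 ± 0.23), MRPL3 (0.73 ± 0.19), MRPL41 (0.66 ± 0.18) and MRPS34 (0.64 ± 0.18), and in these 4 the ranges of the lines overlapped. MRPS2 was higher in OCI in 4 of 5 pairs. MRPS18A, MRPL57 and MRPS15 had limma adjusted p over the threshold, although MRPL57 and MRPS15 did not overlap. The number called higher was 20 without OCI knockdown 2 and 2 to 6 without each of the other 9 libraries. With quantile normalization 8 members were called higher (6.77% of all) and 3 lower (6.27% of all), and with rescaling over protein-coding genes 5 (5.96% of all) and 5 (8.65% of all).

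MRPS6 was the only member called lower in OCI. It stood at 118, 117, 151, 104 and 181 FPKM in H929 wild type, knockdown 1, knockdown 2, overexpression and protein, and at 82.0, 82.1, 52.1, 53.5 and 73.9 in OCI, with no overlap (-0.95 ± 0.19, limma adjusted p = 0.0102). MRPL39, which resembles threonyl-tRNA synthetase in sequence, ran from 33.4 to 46.4 FPKM in H929 cells and from 20.7 to 29.7 in OCI, also with no overlap, but missed the threshold (-0.57 ± 0.17, limma adjusted p = 0.0573). Both genes lie on chromosome 21 and are its only members. The 98 tested protein-coding genes of chromosome 21 had a median difference of -0.57 between OCI and H929, the lowest of the 22 autosomes. That of chromosome 8 was 0.20 over 367 genes. Chromosomes 16 (0.25 over 541 genes) and 19 (0.27 over 777 genes, the highest) stood above it. Whether chromosome copy number plays a part was not tested. MRPS9 (-0.52 ± 0.18), MRPL36 (-0.48 ± 0.17), MRPS30 (-0.41 ± 0.16) and MRPL47 (-0.28 ± 0.23) were lower in OCI in 5 of 5 pairs without passing the threshold.

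**Figure D4:**
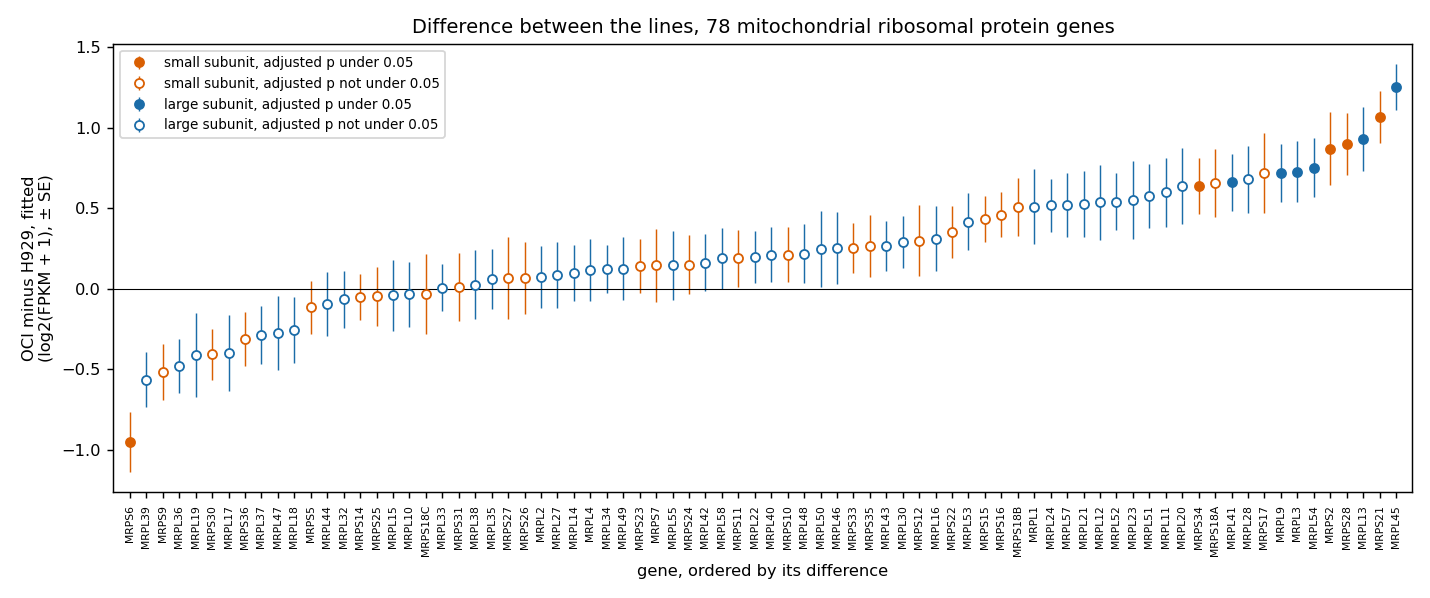
Fitted difference OCI minus H929 in log2(FPKM + 1), with its standard error, for the 78 mitochondrial ribosomal protein genes ordered by size; filled points have a limma adjusted p under 0.05. MRPL45 stands highest at 1.25 and MRPS6 lowest at -0.95, and 59 of the 78 differences are above 0.

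Of the 13 genes of mitochondrial transcription and its nuclear regulators 1 was called higher in OCI (7.6% of all tested genes) and 0 lower (5.28% of all). This was MYC, a transcription factor that drives ribosome and mitochondrial biogenesis. It ran from 131 to 260 FPKM in H929 cells and from 394 to 782.6 in OCI (1.45 ± 0.26, limma adjusted p = 0.0067). Centred within lines, MYC correlated at -0.127 with the mean of the mitochondrial ribosomal protein genes. In OCI knockdown 2, where most of those genes were low, MYC stood at 633 FPKM, against 435 in OCI wild type. Whether MYC plays a part in their difference between the lines was not tested. The mitochondrially encoded mRNAs leaned lower in OCI, with 6 of 13 called lower (5.28% of all tested genes) and a median of -0.71, among them MT-ND2 (-1.23 ± 0.25). Of the 18 translation factors 3 were called lower in OCI (5.28% of all tested genes) and 1 higher (7.6% of all). Their fitted differences lay above 0 for 9 and below 0 for 9. Among those called lower were SLIRP, a partner of LRPPRC in mitochondrial mRNA stability (-1.25 ± 0.29, limma adjusted p = 0.022), and the recycling factor GFM2 (-0.999 ± 0.19, limma adjusted p = 0.0092).

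The proteins were also sorted by known place in the ribosome instead of by symbol. With MRPS18A and MRPS30 in the large subunit, MRPS36 left out and the 5 proteins with other symbols added, the medians were -0.19 and -0.32 in overexpression, -0.078 and -0.13 in knockdown, -0.046 and -0.14 in protein, and 0.20 and 0.20 between the lines, for the small and the large subunit in this order. The small-subunit median in protein thereby went from 0.018 to -0.046, across 0.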

How the data were processed

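The authors deposited 1 table of FPKM values for 58229 genes, with a column for each of the 10 libraries. HISAT2 2.0, StringTie 1.3.0, Bowtie 0.12.2 and the mouse build mm8 are listed, with no step attached, per the submitters' processing notes, although genes carry human Ensembl identifiers, so no coordinates come from the table. FPKM is scaled by the library total, so abundant RNAs can shift all other values. Read counts were not used here, and counting intervals are not given.

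Values were analysed as log2(FPKM + 1), which understates changes of low genes, for the 12872 genes whose mean reached 1 FPKM. limma 3.58.1 (R 4.3.3) fitted cell line and manipulation to all 10 libraries (5 residual degrees of freedom, trended moderation), with Benjamini-Hochberg adjustment over all tested genes and a threshold of 0.05. Differences between lines in a manipulation's effect came from 8 group means. No label ties libraries to separate cultures, so p-values may measure technical spread. The fit was tested on simulated data. Members and gene lists were chosen with earlier results of these data known. Named genes were those called, the 3 with the largest change per direction and subunit on 1 side in every library, the extremes of level and of likeness, members with a special place or role, and up to 3 genes of each other list, with YY1 named beside its motif. Symbols came from a table matching 57518 identifiers, 41822 with a symbol, and biotypes from GENCODE 29. Promoter windows are RefSeq's, 1 per gene. Alternatives were another pseudocount, other filters, other scalings and moderation, no line term, group means, subunits by place, leaving out each library, and a replicate block.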

Additional observations from a re-analysis of the deposited data

Results flagged for a closer look

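With 78 genes and 2 lines, groups of 5 libraries with a value far from the other 4 are to be expected by chance. Not all such values are named below. MRPL54 stood at 75.5 FPKM in H929 overexpression, below the 117 to 128 FPKM of the other 4 H929 libraries, and at 346 FPKM in OCI protein, above the 145 to 180 FPKM of the other 4 OCI libraries. MRPL37 stood apart in the same 2 libraries. It had 133 FPKM in H929 overexpression, below the 191 to 201 FPKM of the other 4 H929 libraries. In OCI protein it had 235 FPKM, above the 119 to 141 FPKM of the other 4 OCI libraries. MRPS9 stood at 13.5 FPKM in H929 protein, below the 20.4 to 23.8 FPKM of the other H929 libraries. The mean log2 level of the small subunit minus that of the large subunit was -0.178 in OCI knockdown 2 and -0.337 to -0.291 in the other 4 OCI libraries.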

How the results depend on the processing

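The protein median of the small subunit was -0.13 with median centring, -0.14 with quantile normalization and -0.40 with rescaling over protein-coding genes, and that of the large subunit -0.28, -0.25 and -0.56. Leaving out each library gave -0.13 to 0.018 and -0.17 to -0.073, and 0 to 1 members called lower. The overexpression median of the large subunit was -0.21 with quantile normalization, -0.43 with rescaling and -0.42 to -0.094 when libraries were left out. Between the lines, 4 members were called higher with no filter, 5 with rescaling, 3 with group means and 2 to 20 when libraries were left out, and 3, 5 and 0 were called lower with quantile normalization, rescaling and group means. Group means leave 2 residual degrees of freedom; otherwise the cause was not tested.

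Alternatives added after seeing the data changed the members on 1 side of wild type in every library. Above wild type in protein stood 10 with median centring, 11 with quantile normalization and 2 with rescaling, and 58 stood below with rescaling. In overexpression 2 stood above with rescaling. In knockdown 4 stood above and 26 below with rescaling, and 10 below with quantile normalization. Reversed signs were those of MRPS18B in overexpression (-0.0062 without H929 overexpression, -0.026 without OCI wild type, 0.27 at most without a library), MRPL32 in overexpression (-0.040 with median centring, -0.11 with rescaling) and MRPS18C in knockdown against overexpression (0.032 without OCI overexpression). Knockdown numbers did not pair the libraries (correlation 0.0757 over 12872 genes of the knockdown differences between lines), and with a replicate block 10 members were called higher in OCI and 1 lower, as without it.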

Other observations

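Proteins that assemble the mitochondrial ribosome lay at both ends of the likeness scale, and the genes named here were chosen after their values were seen. GADD45GIP1, a large-subunit protein with another symbol, correlated at 0.928 with the mean of the 78 genes over the 10 libraries, centred within lines. The RNA helicases DHX30 (0.916) and DDX28 (0.840) and the small-subunit rRNA chaperone ERAL1 (0.865) lay near it, and so did the complex I subunit NDUFS3 (0.887). NOA1, a GTPase needed for the small subunit, had -0.819. It stood at 13.9, 11.5, 13.7, 14.4 and 13.2 FPKM in H929 wild type, knockdown 1, knockdown 2, overexpression and protein, and at 11.6, 13.3, 23.4, 16.3 and 13.0 in OCI, so its value was highest in OCI knockdown 2, where most of the 78 were low. The methyltransferase TFB1M had -0.667. These correlations share library depth and make-up, and no test was made of them.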
